A study of Mus musculus with 8 samples.

Results

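The glycolytic enzyme genes Hk2, Gpi1, Aldoa, Tpi1, Gapdh, Pgk1, Pgam1, Eno1, Pkm and Ldha were described in mESCs, mouse embryonic stem cells, which are cultured from early embryos and can form all tissues of the body. The members are 10 of 52338 genes with values in the table, and they were found by symbol through their Ensembl identifiers. The samples come from work on linc1393, which by its name is a long intergenic non-coding RNA. Its 8 libraries form 4 groups of 2: cells given sh-linc1393 (sh), cells given sd-linc1393 (sd), cells given dd-linc1393 (dd), and untreated wild-type cells (control). Each group has a library numbered replicate 1 and a library numbered replicate 2. No label gives a time, a dose, a cell line or what sd and dd abbreviate, and the level of linc1393 was not analysed here. The controls received no reagent, so an effect of giving a reagent and an effect on linc1393 cannot be told apart. Whether both libraries of a group were grown as separate cultures is not stated, so a p-value here reflects only how much these libraries vary, and that variation may be technical.

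Glycolysis splits glucose into pyruvate in the cytosol and yields ATP without oxygen. The upper enzymes (hexokinase, glucose-6-phosphate isomerase, aldolase and triose-phosphate isomerase) prepare the sugar and split it, and the lower enzymes (from glyceraldehyde-3-phosphate dehydrogenase to pyruvate kinase) recover ATP. Lactate dehydrogenase then turns pyruvate into lactate and restores the NAD+ that the pathway uses. Pluripotent cells are known for high glycolysis, and the hypoxia-inducible factors and Myc are known activators of these genes. Several of the genes also left many processed pseudogenes, copies of the spliced messenger RNA inserted elsewhere in the genome, and Gapdh is the best known example in the mouse.

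Values are FPKM, fragments per kilobase of exon scaled to a total per library. The number of reads assigned to genes was 3658367 to 20387031 in replicate 2 libraries and 6415126 to 20346909 in replicate 1 libraries, recovered from the steps between low values. The share of the 52338 genes above 0 was 62.4% to 89.0% in replicate 2 and 30.9% to 37.7% in replicate 1. All 12 embryonic stem cell markers, among them Pou5f1, Sox2 and Nanog, were above 0 in every library, with a summed level of 7205 to 10299 FPKM in replicate 2 and 1515 to 1970 FPKM in replicate 1. Dppa5a alone made up 5866 to 8584 FPKM of this in replicate 2 and 292 to 557 FPKM in replicate 1, and the other 11 markers summed to 1339 to 2039 FPKM in replicate 2 and 1150 to 1489 FPKM in replicate 1. Of the pluripotency factors, singled out after their values were seen, Pou5f1 had 14.7, 130, 53.1 and 251 FPKM in the sh, sd, dd and control libraries of replicate 2, against 24.2, 17.8, 21.03 and 83.1 FPKM in those of replicate 1. Sox2 had 19.7, 231, 371 and 291 FPKM in these libraries of replicate 2, against 177, 207, 235 and 200 FPKM in those of replicate 1, so for Sox2 sh replicate 2 stood far below the rest. The list as a whole did not share this. In sh against control, 10 of the 12 markers had a positive difference, with a median of 0.18 log2 against 0.15 log2 for all genes. Within the replicate numbers, 7 were higher in both and 2 lower in both. Nanog had 247 FPKM in sh replicate 2 and 215 FPKM in control replicate 2. Markers of other cells were low: the 12 fibroblast feeder markers summed to 8.96 to 13.0 FPKM in replicate 2 and 0.697 to 4.92 FPKM in replicate 1, and the 8 primitive endoderm markers to 1.79 to 10.7 FPKM and 27.5 to 39.4 FPKM in the same order. Of the feeder markers, 11 to 12 of 12 were above 0 in replicate 2 libraries and 2 to 7 in replicate 1 libraries, and all 8 primitive endoderm markers were above 0 in every library. The 7 trophoblast markers summed to 9.83 to 24.4 FPKM in replicate 2 and 2.98 to 6.48 FPKM in replicate 1, and the 6 neuroectoderm markers to 11.7 to 18.7 FPKM and 3.90 to 12.8 FPKM in the same order. Their part in the results below was not tested, and fewer cells of a type and less RNA per cell cannot be told apart in these bulk samples.

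Most of the enzyme genes have close copies in the genome. In the GENCODE M21 annotation of GRCm38, 420 pseudogenes and retrogenes (copies that kept a reading frame) were at least 80% identical to the coding transcript of a member over at least 50% of the copy. Of these, 332 resembled Gapdh, 72 of them at 95% identity or more and 23 at 99% or more. There were 28 for Ldha, 14 for Pkm, 13 each for Aldoa and Eno1, 7 each for Tpi1 and Pgk1, 5 for Pgam1 and 1 for Gpi1 (Gm1840). Hk2 had 0. Exons of Gpi1, Aldoa, Tpi1, Gapdh and Pkm also overlap exons of a neighbouring gene, and whether the counting used strand is not given, so reads of such overlaps cannot be told apart. The 31-base stretches of a member's transcript that also occur in transcripts of another gene made up 92.1% of all stretches in Gapdh, 77.2% in Eno1, 68.3% in Pgk1 and 0.255% in Hk2.

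The 60 bases below show how close the copies are, since this sets how far reads of one gene can be told from reads of another. They were picked as the coding stretch with the most differences, among those aligned without gaps in the 5 most highly valued copies. They are thus less alike than a typical stretch. They are coding bases 326 to 385 of Gapdh (chromosome 6, 125161715 to 125166467, minus strand), counted from the start codon, and the aligned bases of 3 of its 5 most highly valued copies. These are Gm5559 (chromosome 5), Gm13394 (chromosome 2) and Gm12033 (chromosome 11). Capitals mark bases that differ from Gapdh.
Gapdh: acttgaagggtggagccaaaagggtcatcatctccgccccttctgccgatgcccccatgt
Gm5559: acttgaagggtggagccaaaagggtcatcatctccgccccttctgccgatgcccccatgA
Gm13394: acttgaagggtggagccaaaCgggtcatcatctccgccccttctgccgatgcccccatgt
Gm12033: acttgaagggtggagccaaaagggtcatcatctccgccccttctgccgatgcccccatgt

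The other two of the 5, Gm12671 and Gm10359, had 0 differences from Gapdh in these 60 bases. Copies of Aldoa (chromosome 7, 126795234 to 126800751, minus strand) were less alike. In coding bases 362 to 421, picked in the same way, its 5 most highly valued copies had 3, 9, 4, 4 and 11 differences, again in capitals. Over the aligned length their identity to Aldoa was 93.1%, 89.5%, 90.6%, 91.3% and 87.8% in the same order. The first, Aldoart1 (chromosome 4), is a retrogene. The others are Gm5276 (chromosome 3), Aldoa-ps4 (chromosome 9), Gm8659 (chromosome X) and Gm8767 (chromosome 10).
Aldoa: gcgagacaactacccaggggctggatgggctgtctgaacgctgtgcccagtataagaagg
Aldoart1: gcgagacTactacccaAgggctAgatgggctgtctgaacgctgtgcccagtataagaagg
Gm5276: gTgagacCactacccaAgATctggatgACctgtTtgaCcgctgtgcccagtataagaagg
Aldoa-ps4: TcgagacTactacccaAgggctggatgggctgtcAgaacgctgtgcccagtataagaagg
Gm8659: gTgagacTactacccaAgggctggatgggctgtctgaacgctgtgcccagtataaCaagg
Gm8767: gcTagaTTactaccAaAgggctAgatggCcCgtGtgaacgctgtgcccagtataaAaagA

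The enzyme genes stood apart by replicate number. All 10 passed the test of replicate 2 against replicate 1, 9 of them higher and Hk2 lower in replicate 2. The background was high, since 61.3% of the 14561 genes tested were called, 46.6% higher and 14.6% lower (limma on log2(FPKM + 1) with group terms, Benjamini-Hochberg adjusted p under 0.05, 4 libraries a number). In 9 members all replicate 2 libraries lay above all replicate 1 libraries, as in 41.9% of genes tested, and in 1 they lay below, as in 14.2%. The median difference of the members was 3.05 log2, against 0.73 log2 for all genes tested. That median of all genes became 0.02 log2 after quantile normalization and 0.24 log2 after median ratio scaling, and the members' median 2.43 and 2.44 log2. The labels do not say what the replicate number stands for.

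**Figure D1:**
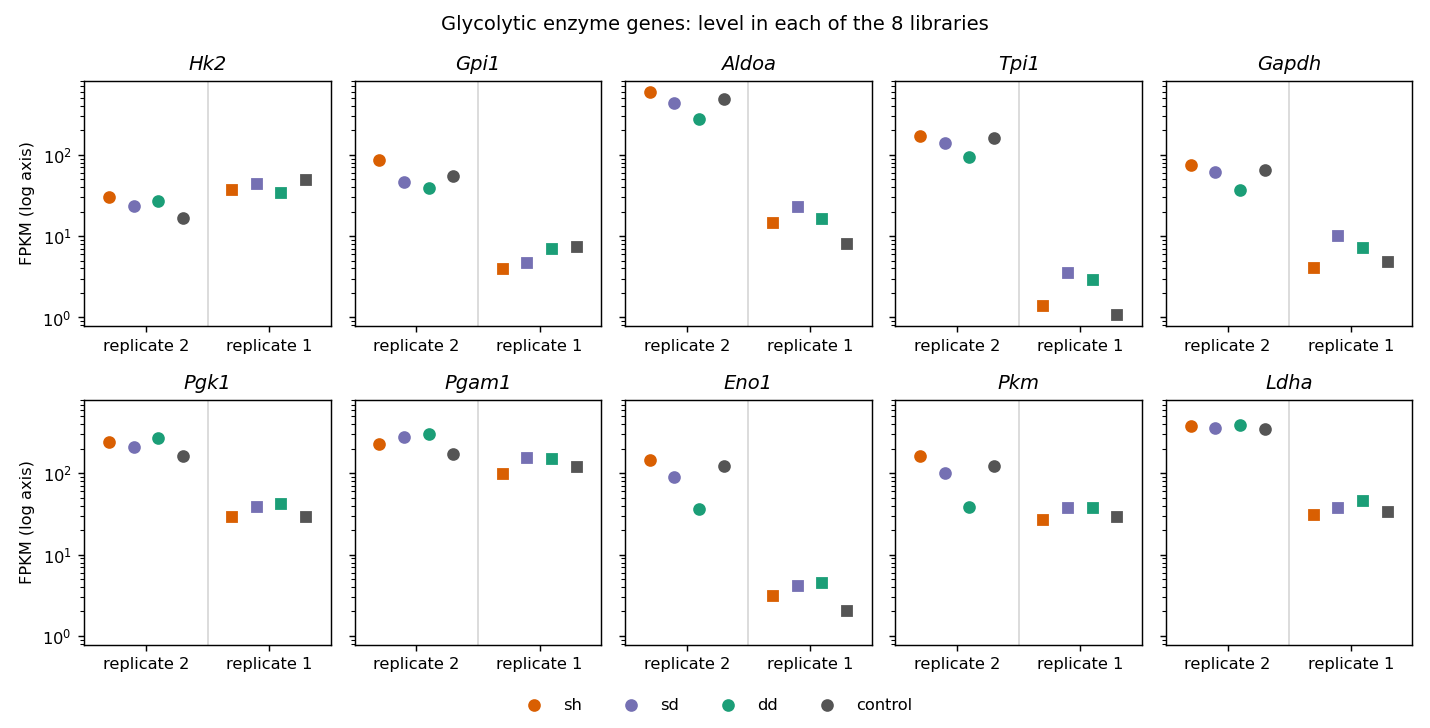
FPKM of each enzyme gene (log axis) in the 8 libraries, with the 4 replicate 2 libraries (circles) left of the 4 replicate 1 libraries (squares) and colours for the groups. Of the 10 genes, 9 sit higher in replicate 2, from Tpi1 at 95.3 to 169 FPKM against 1.08 to 3.55 FPKM down to Pgam1 at 171 to 305 FPKM against 99.01 to 155 FPKM, and Hk2 sits lower.

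Hk2 (chromosome 6, 82725025 to 82774454) encodes hexokinase 2, which traps glucose in the cell by phosphorylating it. It had 30.5, 23.7, 26.8 and 16.5 FPKM in the sh, sd, dd and control libraries of replicate 2, against 36.6, 44.1, 34.2 and 48.3 FPKM in those of replicate 1. The ranges did not overlap, with dd replicate 1 the lowest of its number and sh replicate 2 the highest of its own. The difference was -0.74 log2 (SE 0.275, limma adjusted p = 0.0411, lower in 4 of 4 pairs of libraries of a group). This call was lost without either control library (-0.49 log2, adjusted p = 0.131 without replicate 1 and 0.112 without replicate 2), without either sd or sh library (adjusted p = 0.0511 to 0.147), and with no filter on low values (adjusted p = 0.0503).

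Gpi1 (chromosome 7, 34201330 to 34230336) encodes the isomerase that makes fructose-6-phosphate from glucose-6-phosphate. It had 87.2, 46.3, 39.4 and 54.1 FPKM in the sh, sd, dd and control libraries of replicate 2, against 3.89, 4.73, 6.90 and 7.27 FPKM in those of replicate 1. Every replicate 2 library lay above every replicate 1 library, and the difference was 3.08 log2 (SE 0.320, limma adjusted p = 5.78e-05). Aldoa encodes aldolase A, which cleaves fructose-1,6-bisphosphate into triose phosphates. Its values were 589, 428, 279 and 487 FPKM in the sh, sd, dd and control libraries of replicate 2, against 14.4, 22.6, 16.4 and 8.03 FPKM in those of replicate 1. The lowest replicate 2 library, dd, was still far above the highest replicate 1 library, sd, and the difference was 4.80 log2 (SE 0.318, limma adjusted p = 5.72e-06). A second identifier that the annotation names Aldoa (ENSMUSG00000114515) had 0 to 1.71 FPKM and was not counted as a member. Tpi1 (chromosome 6, 124810586 to 124814296), the isomerase that interconverts the triose phosphates, showed the largest difference of the members. It had 169, 142, 95.3 and 160 FPKM in the sh, sd, dd and control libraries of replicate 2, against 1.37, 3.55, 2.88 and 1.08 FPKM in those of replicate 1. The difference was 5.51 log2 (SE 0.329, limma adjusted p = 3.83e-06), and the replicate 1 levels rested on 19 to 199 reads, so they are the least precise of the set.

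Gapdh encodes glyceraldehyde-3-phosphate dehydrogenase, which reduces NAD+ and is widely used as a reference gene. It had 74.9, 61.0, 37.4 and 64.7 FPKM in the sh, sd, dd and control libraries of replicate 2, against 4.07, 10.1, 7.10 and 4.83 FPKM in those of replicate 1. These libraries separate by replicate number, at 3.03 log2 (SE 0.322, limma adjusted p = 6.55e-05). Its FPKM is divided by a union exon length of 4133 bases while its coding transcript has 1272 bases, which lowers the value against genes whose 2 lengths are alike. Pgk1 (chromosome X, 106187100 to 106203699) encodes phosphoglycerate kinase 1, which makes the first ATP of the pathway. It had 242, 209, 272 and 164 FPKM in the sh, sd, dd and control libraries of replicate 2, against 29.4, 38.3, 42.0 and 29.2 FPKM in those of replicate 1. All 4 groups showed the same direction, at 2.63 log2 (SE 0.220, limma adjusted p = 1.85e-05). Pgam1 (chromosome 19, 41911923 to 41918660), the mutase that moves the phosphate of phosphoglycerate, differed least of the 9 genes that were higher in replicate 2. It had 232, 282, 305 and 171 FPKM in the sh, sd, dd and control libraries of replicate 2, against 99.01, 155, 149 and 118 FPKM in those of replicate 1. The difference of 0.91 log2 (SE 0.212, limma adjusted p = 0.00533) was near the median of all genes. It became -0.18 log2 after quantile normalization (adjusted p = 0.481) and 0.25 log2 after median ratio scaling (adjusted p = 0.467).

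Eno1 (chromosome 4, 150236721 to 150248879) encodes alpha-enolase, which forms phosphoenolpyruvate. It had 146, 89.2, 36.6 and 124 FPKM in the sh, sd, dd and control libraries of replicate 2, against 3.09, 4.11, 4.43 and 2.03 FPKM in those of replicate 1. The numbers were apart at 4.37 log2 (SE 0.408, limma adjusted p = 3.24e-05), and dd replicate 2 stood below the other replicate 2 libraries. Pkm (chromosome 9, 59656368 to 59679375) encodes the muscle-type pyruvate kinase, whose M1 and M2 isoforms could not be separated in gene-level values. It had 163, 102, 38.5 and 124 FPKM in the sh, sd, dd and control libraries of replicate 2, against 26.3, 37.7, 37.3 and 28.6 FPKM in those of replicate 1. The dd replicate 2 library all but met the sd replicate 1 library, and the difference was 1.53 log2 (SE 0.381, limma adjusted p = 0.00729). It was 0.84 log2 after quantile normalization (adjusted p = 0.0612), and without sh replicate 1 it was 1.18 log2 (adjusted p = 0.0536). Ldha (chromosome 7, 46841475 to 46855627) encodes the lactate dehydrogenase subunit that favours lactate formation. It had 385, 357, 389 and 351 FPKM in the sh, sd, dd and control libraries of replicate 2, against 30.5, 37.3, 45.0 and 33.2 FPKM in those of replicate 1. It varied little within a number, with a mean of 370 ± 19.4 FPKM in replicate 2 and 36.5 ± 6.33 FPKM in replicate 1 (SD, n = 4 each), and the difference was 3.32 log2 (SE 0.211, limma adjusted p = 4.97e-06).

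To rank the genes, reads were divided by transcript length and by the library total. The reads are those of all exons of a gene, so reads outside the coding transcript can raise a value, more in some genes than in others. On this scale (RPKM over the coding transcript), Aldoa had a mean of 859 and Ldha of 694 in replicate 2, and their ranges over the libraries overlapped. Then came Pgam1 at 276, Pgk1 at 273, Eno1 at 263, Tpi1 at 242, Pkm at 220, Gapdh at 193 and Gpi1 at 127, where each range overlapped that of the next gene. Hk2 was last at 26.4 in replicate 2, apart from Gpi1. In replicate 1 the order was another one: Pgam1 led at 146, apart from Ldha at 68.4 and Pkm at 66.8, which overlapped each other and stood apart from Hk2 at 44.2. Below them Pgk1 (42.7), Aldoa (29.5), Gapdh (21.2), Gpi1 (12.7), Eno1 (9.06) and Tpi1 (3.81) each overlapped the next gene. By its own reads, Aldoa was thus first in replicate 2 and sixth in replicate 1. These places turn once copies are counted: with the family's reads over the length of the gene's transcript, Gapdh led in replicate 2 at a mean of 3090 RPKM (1156 to 4456), ahead of Aldoa at 1298 RPKM (699 to 1780), with overlapping ranges. In replicate 1 the Gapdh family was second at 130 RPKM, after Pgam1 at 146 RPKM, and Aldoa was seventh at 32.7 RPKM. The summed level of the 10 genes was 2118, 1740, 1520 and 1716 FPKM in the sh, sd, dd and control libraries of replicate 2, against 249, 358, 346 and 281 FPKM in those of replicate 1.

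The reads of the copies were counted beside those of each gene. Gapdh itself held 5.46% of the reads of its family (Gapdh and copies) in sh replicate 2, 6.26% in sd replicate 2, 10.5% in dd replicate 2 and 5.87% in control replicate 2. The shares in replicate 1 were 16.0% in sh, 17.9% in sd, 14.7% in dd and 16.6% in control. The mean was 7.03 ± 2.35% in replicate 2 and 16.3 ± 1.34% in replicate 1 (SD, n = 4 each), so most reads assigned to the family were assigned to pseudogenes in every library. The exact 95% interval was 5.52% to 6.24% in control replicate 2 and 14.0% to 19.4% in control replicate 1, counting error only. The whole family took 1470 to 5668 RPM (reads scaled to the library total) in replicate 2 and 105 to 234 RPM in replicate 1. Of its 332 copies, 294 had reads in control replicate 2, the shallowest library at 3658367 reads, against 121 in sd replicate 1 at 20346909 reads.

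**Figure D2:**
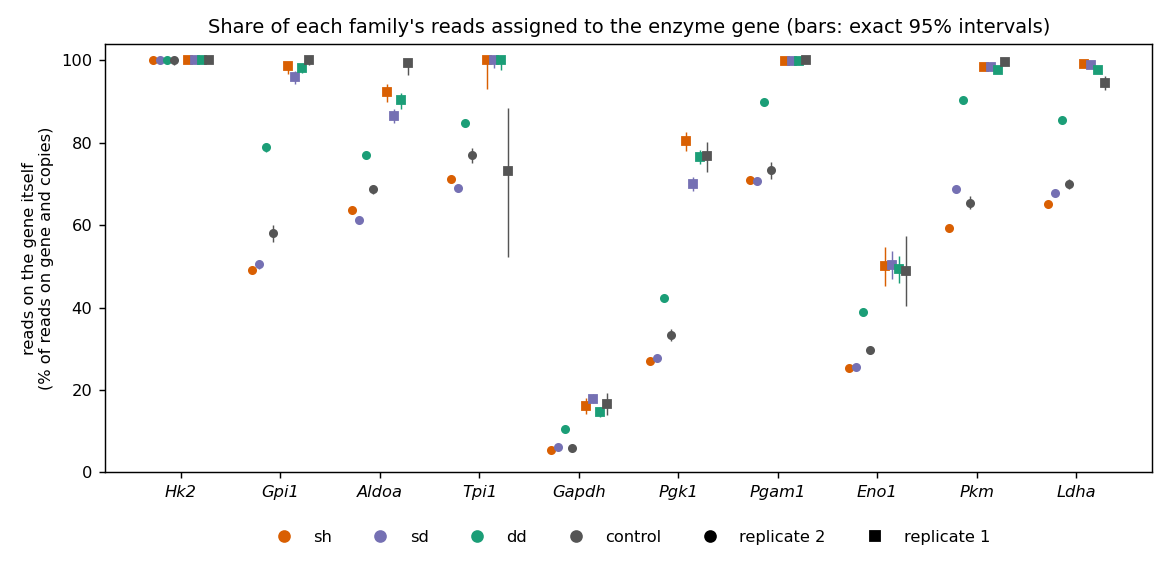
Percent of the reads of each family (the enzyme gene plus its pseudogene and retrogene copies) that were assigned to the gene itself, with circles for replicate 2, squares for replicate 1, colours for the groups and exact 95% intervals as bars. Gapdh lies between 5.46% and 17.9%, Hk2 has no copies and lies at 100%, and in 8 of 9 families with copies all replicate 2 shares lie below all replicate 1 shares.

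In the other families the gene held more of the reads. In replicate 2 libraries the mean share on the gene was 29.9% for Eno1, 32.6% for Pgk1, 59.2% for Gpi1, 67.7% for Aldoa, 71.0% for Pkm, 72.2% for Ldha, 75.5% for Tpi1 and 76.2% for Pgam1. In replicate 1 it was 49.7% for Eno1 and 75.9% for Pgk1, and 92.1% to 99.9% for the other 6. All replicate 2 shares lay below all replicate 1 shares in 8 of the 9 families with copies. The exception was Tpi1, where control replicate 1 had 73.1% of only 26 reads (exact 95% interval 52.2% to 88.4%). Within replicate 2, dd had the highest share on the gene in 9 of 9 families, and in 6 of them sh had the lowest. These counts set single libraries against each other, and the families are not replicates. The dd library also differed over the whole table: 62.4% of all genes were above 0 in it, against 89.0%, 86.3% and 78.3% in sh, sd and control replicate 2. Whether the shares follow from this was not tested. When the reads of copies were added to each gene, the difference between the numbers grew for the 9 genes that have copies: it was 4.46 log2 for Gapdh, 5.30 log2 for Eno1, 3.88 log2 for Pgk1 and 1.30 log2 for Pgam1. The direction and call of each member stayed as they were.

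The level of a copy varied with its identity to the gene. Relative to the gene, per kilobase, the 28 copies of 99% to 100% identity had a median level of 0.622 in replicate 2 and 0.137 in replicate 1, and all 28 had reads in both numbers. Among these 28, 23 were copies of Gapdh, and the other 5 had medians of 1.45 in replicate 2 and 0.228 in replicate 1. The 226 copies under 90% identity had a median of 0.00174 in replicate 2, where 97.8% had reads, and of 0 in replicate 1, where 20.8% had reads. Between them, copies of 95% to 99% had medians of 0.0627 in replicate 2 and 0.0172 in replicate 1. The levels of near-identical copies cannot be told from those of the gene. No source used here names the counting program or its treatment of reads with several matches.

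**Figure D3:**
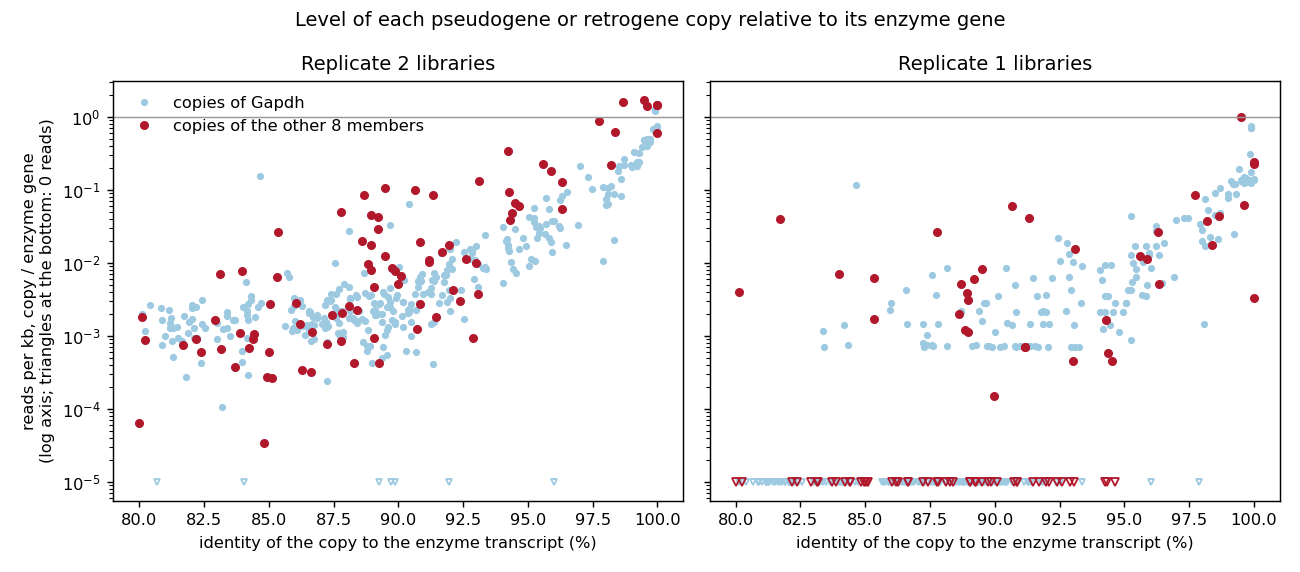
Level of each of the 420 copies relative to its enzyme gene (reads per kilobase, log axis, summed over the 4 libraries of a number) against its identity to the gene's transcript, with Gapdh copies in light blue and copies of the other 8 genes in red; triangles mark copies with 0 reads. Levels climb towards and above 1 near 100% identity, and under 90% identity most copies carry reads in replicate 2 (97.8%) and few in replicate 1 (20.8%).

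Named copies show the same range. Gm5559, one of the Gapdh copies printed above, had 311, 288, 130 and 265 FPKM in the sh, sd, dd and control libraries of replicate 2, against 9.73, 25.2, 17.4 and 11.8 FPKM in those of replicate 1. Its level per kilobase was 1.28 times that of Gapdh in replicate 2 and 0.758 times in replicate 1. Gm12671, which is 100% identical over its length, had 0.755 and 0.142 times the level of Gapdh in the same order. For Eno1, the retrogene Eno1b (99.5% identity) had 699, 453, 116 and 512 FPKM in the sh, sd, dd and control libraries of replicate 2, against 8.53, 10.7, 12.04 and 5.98 FPKM in those of replicate 1. It is thus listed above Eno1 in FPKM in all 8 libraries. The FPKM of Eno1 is divided by a union exon length of 5379 bases while its coding transcript has 2027 bases, which lowers the value. In reads, Eno1b had 220, 407, 433 and 72 in the sh, sd, dd and control libraries of replicate 1, against 228, 450, 457 and 70 for Eno1. In replicate 2 it had 18328, 13052, 4423 and 3516 reads, against 10950, 7373, 4018 and 2445 for Eno1. Pgk1-rs7 and Gm5537, both 100% identical to Pgk1 over their length, had 1.46 and 1.45 times its level in replicate 2 and 0.241 and 0.228 times in replicate 1. Pgam1-ps2, also at 100%, was high in replicate 2 and at or near 0 in replicate 1. It had 214, 288, 83.5 and 134 FPKM in the sh, sd, dd and control libraries of replicate 2, against 0, 0.707, 0.819 and 0 FPKM in those of replicate 1. The Aldoa retrogene Aldoart1 had 177, 140, 36.5 and 109 FPKM in the sh, sd, dd and control libraries of replicate 2, against 0.426, 0.886, 0.356 and 0 FPKM in those of replicate 1. Where a copy is at 0 reads, up to 3 reads per library remain possible, counting error only.

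The sh libraries were set against the controls to ask whether the enzyme genes differ in cells given sh-linc1393. None of the 10 enzyme genes passed the test (smallest limma adjusted p = 1), and 0.00% of all genes were called, with 32 genes and 0 members at an unadjusted p under 0.05. A second test, limma's voom on the recovered reads, also called 0 genes (7 unadjusted). Means of log2(FPKM + 1) differed by up to 0.52 log2, in Aldoa at 302 FPKM in sh and 248 FPKM in control (SE 2.74, SD 406 and 339 FPKM, n = 2 each). Each difference was smaller than its standard error in this fit without a block, and no member had both sh libraries above or below both control libraries (8.40% and 2.13% of all genes). Within replicate 2, all 10 genes were higher in the sh library than in the control library, from 0.07 log2 in Tpi1 to 0.85 log2 in Hk2, with a median of 0.33 log2 against 0.20 log2 for all genes. Within replicate 1, 4 of 10 were higher, with a median of -0.12 log2 against 0.10 log2 for all genes. The 4 that were higher in both numbers were Aldoa, Tpi1, Pgk1 and Eno1, while 35.2% of all genes were higher in both, and 0 members were lower in both, beside 10.6% of all genes. Gpi1 showed the widest disagreement, at 0.68 log2 within replicate 2 and -0.76 log2 within replicate 1. These within-number values set 1 library against 1 and have no test.

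The sd libraries put the same question for sd-linc1393. No member passed the test (smallest limma adjusted p = 1), and 0.00% of genes were called, with 50 genes and 0 members at an unadjusted p under 0.05 and 0 genes called with voom (9 unadjusted). Means of log2(FPKM + 1) differed by up to 0.60 log2, in Aldoa, less than the standard error of 2.74 log2 in the fit without a block. With the replicate number as a block this standard error was 0.45 log2. The plain means of Aldoa ran the other way, at 225 ± 286 FPKM in sd and 248 ± 339 FPKM in control (SD, n = 2 each). No member had both sd libraries above or below both control libraries (11.1% and 2.69% of all genes). Within replicate 2, 4 of 10 genes were higher in sd than in control, with a median of -0.13 log2 against 0.03 log2 for all genes. The 4 were Pgam1 (0.72 log2), Hk2 (0.50 log2), Pgk1 (0.35 log2) and Ldha (0.03 log2), and the lowest was Eno1 (-0.47 log2). Within replicate 1, 8 of 10 were higher, with a median of 0.39 log2 against 0.31 log2 for all genes. Aldoa was the highest there, at 1.38 log2, and Hk2 (-0.13 log2) and Gpi1 (-0.53 log2) were lower. Pgk1, Pgam1 and Ldha were higher in both numbers, beside 37.5% of all genes, and Gpi1 was lower in both, beside 12.7%.

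The comparison of dd with control likewise gave 0 members and 0.00% of genes past the test (smallest limma adjusted p of a member = 1), with 83 genes and 0 members at an unadjusted p under 0.05 and 0 genes called with voom (23 unadjusted). The mean of Pkm was 37.9 ± 0.820 FPKM in dd and 76.5 ± 67.7 FPKM in control (SD, n = 2 each), -0.65 log2 with a standard error of 1.14 log2 without a block. With the replicate number as a block this standard error was 0.54 log2. No member had both dd libraries above or below both control libraries (11.2% and 4.72% of all genes). The libraries of dd replicate 2 and control replicate 2 nevertheless showed the widest spread among the members. Eno1 had 36.6 FPKM in dd replicate 2 and 124 FPKM in control replicate 2 (-1.73 log2), and Pkm had 38.5 and 124 FPKM in these libraries (-1.67 log2). Aldoa (-0.80 log2), Gapdh (-0.77 log2), Tpi1 (-0.75 log2) and Gpi1 (-0.45 log2) were lower too. Pgam1 (0.84 log2), Pgk1 (0.73 log2), Hk2 (0.67 log2) and Ldha (0.15 log2) were higher. Within replicate 1 the picture was another one, with 8 of 10 genes higher in dd than in control and a median of 0.45 log2 against 0.28 log2 for all genes. Eno1 was 0.84 log2 and Pkm 0.37 log2 higher there. Pgk1, Pgam1 and Ldha were higher in both numbers, beside 31.0% of all genes, and Gpi1 was lower in both, beside 15.1%. The 3 comparisons share the control libraries, so their values are not independent of each other.

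**Figure D4:**
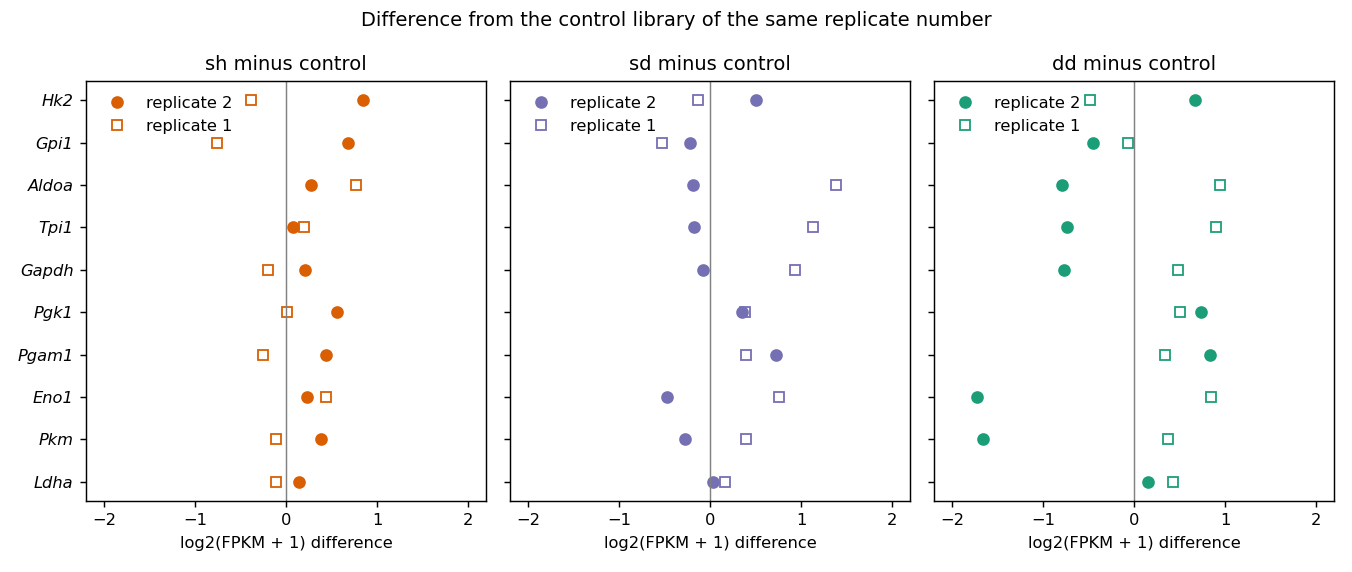
Difference in log2(FPKM + 1) of each enzyme gene between the treated library and the control library of the same replicate number, with filled circles for replicate 2 and open squares for replicate 1. Eno1 and Pkm in dd lie at -1.73 and -1.67 in replicate 2 and at 0.84 and 0.37 in replicate 1.

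Between the treated groups, no member and 0.00% of genes passed the test for sd against sh, for dd against sh or for dd against sd, with 13, 14 and 8 genes and 0 members at an unadjusted p under 0.05. Voom called 0 genes in each of the 3 (3, 10 and 4 unadjusted). No member had both libraries of the first group above or below both of the other in sd against sh (4.14% and 4.25% of all genes), dd against sh (6.20% and 6.85%) or dd against sd (3.56% and 7.18%). Higher in both numbers were 1 member in sd against sh (20.1% of all genes), 3 in dd against sh (21.5%) and 2 in dd against sd (18.7%). Lower in both were 0 members (24.8% of all genes), 1 (25.7%) and 4 (28.2%) in the same comparisons. In dd against sh within replicate 2 the median of the members was -0.90 log2, against -0.30 log2 for all genes, and Pkm (-2.05 log2) and Eno1 (-1.96 log2) were lowest. Within replicate 1 it was 0.52 log2, against 0.13 log2 for all genes. In replicate 2, sh held the highest value of 7 members and dd that of Pgk1, Pgam1 and Ldha. The lowest value was in dd for 6 members and in control for Hk2, Pgk1, Pgam1 and Ldha. In replicate 1, sd was highest for 5 members and sh lowest for 5. How often each library is highest or lowest over all genes was not counted. These counts therefore have no background and do not set the members apart from other genes.

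The direction of the dd difference within replicate 2 varied with base composition. The 6 genes that were lower in dd had a transcript GC content of 53.5% (Tpi1 and Gpi1), 55.2% (Gapdh), 57.3% (Aldoa), 57.4% (Eno1) and 57.7% (Pkm). The 4 that were higher had 49.7% (Pgk1), 51.0% (Ldha), 51.9% (Hk2) and 52.8% (Pgam1). Across the 10 genes Spearman's rho between GC content and the difference was -0.891, and Pearson's r was -0.877. Over all genes the sign was the same: rho was -0.543 over 14549 genes, and the median difference was 0.59 log2 in the decile of genes with the least GC and -1.09 log2 in the decile with the most. Within replicate 1, rho over all genes was 0.00215 for dd minus control. Across the 10 members the sign was reversed there, with rho at 0.248 for dd, 0.455 for sd and 0.333 for sh minus control. For sd minus control within replicate 2 rho was -0.818 across the members and -0.438 over all genes, and for sh minus control it was -0.20 and -0.362. These correlations are across genes of the same libraries, which are not independent replicates, and the part of GC content in the differences was not tested. With their copies added, the families of Eno1, Pkm and Gapdh in dd replicate 2 had 506, 213 and 1470 RPM, against 2250, 950 and 4554 RPM in control replicate 2, ratios of 0.225, 0.224 and 0.323.

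**Figure D5:**
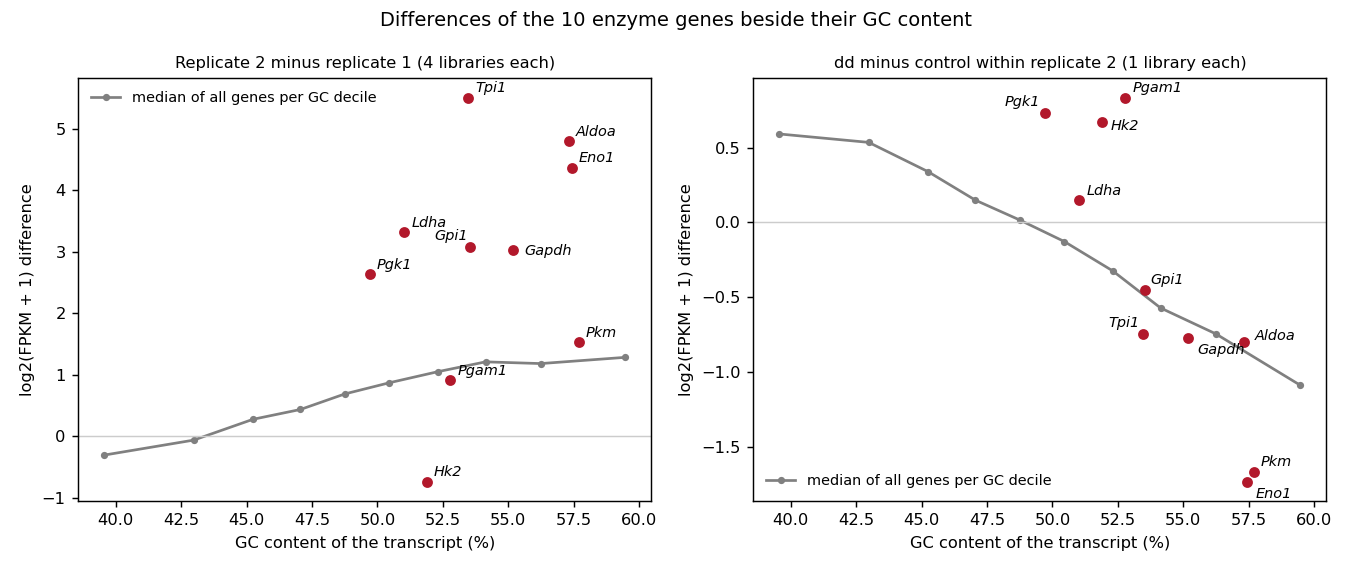
Log2(FPKM + 1) difference of each enzyme gene (red) against the GC content of its transcript, for replicate 2 minus replicate 1 on the left and dd minus control within replicate 2 on the right; the grey line joins the medians of all genes in each decile of GC content. On the right, Pgk1, Ldha, Hk2 and Pgam1 lie above 0 and the 6 genes of higher GC content below it; on the left, 8 genes lie above the grey line and Pgam1 and Hk2 below it.

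The difference between the replicate numbers was also graded by GC content over all genes (rho 0.352), from a median of -0.31 log2 in the decile with the least GC to 1.28 log2 in the decile with the most. As percentiles of the difference among all genes, Tpi1 stood at 99.7, Aldoa at 99.3, Eno1 at 98.8, Ldha at 95.9, Gpi1 at 94.8, Gapdh at 94.4 and Pgk1 at 90.9. Pkm was at 72.8, Pgam1 at 54.9 and Hk2 at 15.0. Across the 10 members rho with GC content was 0.261.

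How the members varied together was described after centring each gene within its replicate number, over the 8 libraries. Gapdh followed the mean of the other members most closely (Pearson's r 0.915), then Tpi1 (0.882), Aldoa (0.781), Pkm (0.773), Eno1 (0.759), Gpi1 (0.509) and Ldha (0.461). Pgk1 (0.183), Pgam1 (0.0441) and Hk2 (-0.0392) did not follow it. Of 9925 other protein-coding genes above the filter, 168 had an r above 0.9 with the mean of all members. The 5 most alike were Mmp2, a matrix metalloproteinase gene (0.988), Cenpt, a kinetochore component (0.987), Cnnm2 (0.985), Ppp1r8, a regulator of protein phosphatase 1 (0.975), and Syngr2, a vesicle protein (0.974). Cenpt had 11.4, 7.32, 4.83 and 8.40 FPKM in the sh, sd, dd and control libraries of replicate 2, against 8.80, 15.1, 13.5 and 8.98 FPKM in those of replicate 1. Mmp2 had 6.35, 4.46, 3.40 and 4.62 FPKM in replicate 2, against 0.864, 1.76, 1.42 and 0.925 FPKM in replicate 1, in the same order of groups. Both shared with Gapdh the sh peak in replicate 2 and the sd peak in replicate 1. They were picked for their likeness to the members over the same 8 libraries, so these shared peaks are no separate observation.

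The rest of the pathway was read from lists of known genes. Of 19 other glycolytic enzyme genes, 11 passed the filter on low values, and 10 of these were higher in replicate 2 with none lower, beside 46.6% higher and 14.6% lower among all genes (median 2.09 log2, against 0.73 log2 for all genes). Ldhb, the lactate dehydrogenase subunit that favours pyruvate, had 464, 463, 593 and 343 FPKM in the sh, sd, dd and control libraries of replicate 2, against 25.2, 41.9, 30.7 and 15.7 FPKM in those of replicate 1. Its difference of 4.05 log2 (SE 0.234, limma adjusted p = 3.54e-06) lay among those of the members. Aldoc (3.72 log2), Pfkl, a phosphofructokinase subunit (2.88 log2), and Hk1 (2.52 log2) were also higher. Of the glucose and lactate transport genes, 4 of 5 above the filter were higher and 1 lower. The glucose transporter Slc2a3 (1.86 log2), the lactate exporter Slc16a3 (3.47 log2) and its chaperone Bsg (3.45 log2) were higher. The lactate carrier Slc16a1 was lower, with 30.6, 32.3, 23.6 and 18.4 FPKM in the sh, sd, dd and control libraries of replicate 2, against 158, 86.6, 92.9 and 114 FPKM in those of replicate 1.

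Outside glycolysis the counts were mixed, and each is to be read against the 46.6% of all genes that were higher and the 14.6% that were lower. Of the pentose phosphate genes 3 of 7 were higher and none lower, among them transketolase (Tkt, 4.34 log2), and of the gluconeogenesis genes 3 of 5 were higher and none lower, among them Pck2 (2.19 log2). Both counts higher are near that background. Of 12 genes for pyruvate dehydrogenase, its kinases and pyruvate carriers, 2 were higher and 4 lower, among them Pdk1, the kinase that restrains pyruvate entry (-2.05 log2). Of the enzymes that set fructose-2,6-bisphosphate, 1 of 4 was higher (Pfkfb3, 0.93 log2). Of 13 hypoxia target genes outside glycolysis 9 were higher and 2 lower, with Bnip3 at 3.40 log2 and Vegfa at 1.86 log2. Ddit4 and Kdm3a, named for their direction, lay lower in every replicate 2 library than in any replicate 1 library. Ddit4 had 24.8, 10.5, 10.5 and 16.5 FPKM in the sh, sd, dd and control libraries of replicate 2, against 57.9, 48.4, 43.8 and 47.6 FPKM in those of replicate 1. Of the known regulators 5 of 6 were lower and none higher. Myc was at -3.60 log2 (limma adjusted p = 1.88e-05), Mycn at -1.79 log2, Epas1 at -1.68 log2 and Hif1a at -1.27 log2. Of 12 housekeeping genes 5 were higher and 2 lower. Actb, which encodes cytoplasmic actin, had 55.3, 65.9, 55.3 and 76.6 FPKM in the sh, sd, dd and control libraries of replicate 2, against 15668, 9645, 9006 and 15913 FPKM in those of replicate 1. In the comparisons of sh, sd and dd with control, none of these lists had a called gene. The median of the other glycolytic enzymes was 0.41 log2 in sh, 0.15 log2 in sd and 0.00 log2 in dd, against 0.15, 0.17 and 0.06 log2 for all genes.

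The promoters of the members were read from RefSeq (GRCm38.p6) as 250 bases before to 50 bases after each transcript start, which gave 16 windows for the 10 genes. The letters ACGTG or GCGTG on either strand, the core of the hypoxia response element, occurred in 12 of the 16 windows (8 of 10 genes) and in 43.8% of all 32851 promoters of this length. Windows of the same gene can overlap, as for Eno1 and Aldoa, so the windows are not separate promoters. ACGTG was in 8 windows of 7 genes (19.6% of all promoters) and GCGTG in 7 windows of 4 genes (32.4%). Some windows hold both. CACGTG, the E-box letters that Myc and Max bind and that contain ACGTG, was in 1 window, that of Ldha (7.15% of all promoters). GGGCGG, the GC box of Sp1, was in 11 windows of 9 genes (35.7% of all promoters). Shown are Ldha and Pgk1, well known hypoxia targets that were higher in replicate 2, and Hk2, a known hypoxia target that was lower. They are Ldha at chr7:46845554-46845853 (plus strand), Pgk1 at chrX:106186850-106187149 (plus strand) and Hk2 at chr6:82774405-82774704 (minus strand), each in the direction of its gene. Capitals mark ACGTG or GCGTG and their reverse complements, joined where they overlap.
Ldha: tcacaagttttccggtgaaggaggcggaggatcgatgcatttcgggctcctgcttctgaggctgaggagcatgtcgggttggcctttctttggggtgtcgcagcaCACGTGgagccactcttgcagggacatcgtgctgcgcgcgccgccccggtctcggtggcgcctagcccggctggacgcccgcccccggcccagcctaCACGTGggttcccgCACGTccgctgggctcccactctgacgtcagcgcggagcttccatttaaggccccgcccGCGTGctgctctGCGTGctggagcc
Pgk1: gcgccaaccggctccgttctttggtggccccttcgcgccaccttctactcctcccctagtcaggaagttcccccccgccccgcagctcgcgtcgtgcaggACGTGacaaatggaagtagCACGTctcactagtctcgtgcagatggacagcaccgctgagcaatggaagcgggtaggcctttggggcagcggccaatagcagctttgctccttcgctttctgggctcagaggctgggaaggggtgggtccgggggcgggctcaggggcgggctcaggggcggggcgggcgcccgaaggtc
Hk2: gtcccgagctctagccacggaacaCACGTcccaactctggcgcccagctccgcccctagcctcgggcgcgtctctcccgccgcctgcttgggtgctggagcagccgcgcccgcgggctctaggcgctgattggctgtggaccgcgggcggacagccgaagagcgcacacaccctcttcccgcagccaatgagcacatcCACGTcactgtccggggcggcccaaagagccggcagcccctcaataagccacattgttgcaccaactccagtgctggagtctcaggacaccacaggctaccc

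The Ldha window holds 5 matches to ACGTG, 2 to GCGTG and 2 to CACGTG, where a palindromic CACGTG counts on both strands for ACGTG. The Pgk1 and Hk2 windows hold 2 matches to ACGTG each. Whether these letters have a part in the difference between the replicate numbers was not tested. A match describes the letters in these windows and says nothing of binding in these cells.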

How the data were processed

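RNA from 8 mESC libraries was sequenced, and the authors deposited 1 table of FPKM values per gene, per the file headers. HISAT2, CASAVA 1.4 and the mm10 build are listed in the submitters' processing notes without a role or order. No source used here gives the counter, the annotation or whether strand was used.

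From these values, reads were worked back from the spacing of low values: with exon lengths of GENCODE M21, 98.3% to 98.9% of values under 100 reads per library came out whole within 0.02. Of 58420 rows, 52338 had values and 52081 matched GENCODE. A floor of 3 reads corresponds to 0.147 to 0.82 FPKM for a 1 kb transcript. Genes with a mean of at least 1 FPKM (14561) were tested with limma 3.58.1 (R 4.3.3) on log2(FPKM + 1), a pseudocount of 1 that understates changes of low genes, with a trended prior, 2-sided, Benjamini-Hochberg threshold 0.05. All 4 groups entered 1 fit without a block (4 residual degrees of freedom). The replicate numbers were compared with group terms (3 residual degrees of freedom). The scripts were tested on simulated data.

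Copies were found with blastn 2.17.0 among annotated pseudogenes and known retrogenes, on the plus strand. The rule that the match overlaps coding bases was added after hits were seen. Shares carry exact (Clopper-Pearson) 95% intervals, which cover counting error only.

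The members and gene lists were chosen with earlier results of these data known. Named are all members, at most 4 genes of a list with the smallest p, the 5 copies of highest mean FPKM and the 5 coding genes most alike in pattern. Alternatives covered pseudocount, filter, scaling, variance model, samples in the fit, block, left-out libraries, added copies and, chosen after seeing the data, voom.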

Additional observations from a re-analysis of the deposited data

How the results depend on the processing

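No group comparison called a gene or a member under any alternative run, so the values here concern directions of differences that passed no test. Of the differences of members recomputed with all libraries, 426 kept direction and side of the threshold, 31 changed sign and 3 others lost their call. Many of the 426 could not change sign. The filter, the variance model, the groups in the fit and the block without voom leave each difference itself unchanged in this balanced design. After median ratio scaling, the log2 difference changed sign for sh against control in Gapdh (-0.15), Ldha (-0.16), Pgam1 (-0.0732), Pkm (-0.0289) and for sd against control in Hk2 (-0.0285), Ldha (-0.11), Pkm (-0.15). After quantile normalization, the log2 difference changed sign for sh against control in Gapdh (-0.0608), for sd against control in Ldha (-0.0194), Pkm (-0.0328), for dd against control in Hk2 (-0.0505), Tpi1 (-0.0078) and for replicate 2 against replicate 1 in Pgam1 (-0.18). With a pseudocount of 0.1, the log2 difference changed sign for sh against control in Gapdh (-0.0151). With a pseudocount of 0.5, the log2 difference changed sign for sh against control in Gapdh (-0.00595). With the reads of copies added, the log2 difference changed sign for sh against control in Gpi1 (0.0900) and for dd against control in Tpi1 (-0.12). With voom on recovered reads, the log2 difference changed sign for sh against control in Ldha (-0.17), for sd against control in Ldha (-0.0295), Pkm (-0.0404) and for dd against control in Aldoa (-0.0973), Gapdh (0.0175). With voom and the replicate block, the log2 difference changed sign for sh against control in Gapdh (-0.0105), Gpi1 (0.11), Ldha (-0.0168), for sd against control in Eno1 (-0.28), Pkm (-0.0103), Tpi1 (-0.0554) and for dd against control in Aldoa (-0.39), Hk2 (-0.048), Tpi1 (-0.62). The cause was not tested. Between replicate numbers, 8920 genes were called, against 5368 when the filter was raised to 5 FPKM, where fewer genes were tested. Of the 10 members, 8 to 10 were called between the numbers, with a library left out or not. The calls of Hk2, Pgam1 and Pkm that were lost stand beside their values in the text above.

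Leaving out 1 library of a compared group set unequal replicate numbers against each other. Leaving out a library of another group left a group difference as it was, so its sign could not change. With all these values counted, the sign changed in 54 of 320, over 28 differences. For sh against control the lowest and highest log2 differences were Aldoa -2.36 to 3.40, Eno1 -2.36 to 3.01, Gapdh -1.95 to 1.96, Gpi1 -2.13 to 2.05, Hk2 -0.52 to 0.98, Ldha -1.80 to 1.82, Pgam1 -0.52 to 0.70, Pgk1 -1.22 to 1.78, Pkm -1.16 to 1.43 and Tpi1 -3.01 to 3.27. For sd against control the lowest and highest log2 differences were Aldoa -2.28 to 3.48, Eno1 -2.54 to 2.83, Gapdh -1.32 to 2.17, Gpi1 -1.90 to 1.15, Hk2 -0.57 to 0.93, Ldha -1.59 to 1.77, Pgk1 -0.86 to 1.59, Pkm -0.99 to 1.09 and Tpi1 -2.66 to 3.62. Pgam1 kept its sign there, at 0.13 to 0.99 log2. For dd against control the lowest and highest log2 differences were Aldoa -2.81 to 2.95, Eno1 -3.13 to 2.24, Gapdh -1.90 to 1.60, Gpi1 -1.63 to 1.11, Hk2 -0.66 to 0.84, Ldha -1.39 to 1.97, Pgk1 -0.72 to 1.95, Pkm -1.69 to 0.39 and Tpi1 -3.06 to 3.22. Pgam1 again kept its sign, at 0.0733 to 1.10 log2. The Gapdh share of its family ran from 5.86% to 7.55% in replicate 2 and from 15.7% to 16.8% in replicate 1, and with only copies of at least 95% identity it was 7.44% and 17.1%.

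With the replicate number as a block, 0 genes and 0 members were called in each of the 6 group comparisons, with 480 genes at an unadjusted p under 0.05 for sh, 945 for sd and 1310 for dd against control. The standard errors of the members were 0.30 to 0.58 log2 with the block and 0.73 to 3.11 log2 without it. In limma on log2(FPKM + 1) with the block, the smallest unadjusted p of a member was 0.0773 (Pgk1, dd against control). Voom with the block called 0 genes and 0 members in these comparisons. At an unadjusted p under 0.05 it had 1 member and 1435 genes for dd against control, and 1 member and 1202 genes for dd against sh. It had 0 members there in each of the other comparisons. Same-numbered libraries deviated together (correlations of 0.75 to 0.893), but each comparison has only 2 pairs and the labels do not say what the number stands for, so the libraries share a number and are not treated as paired.

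Depth limits the lowest levels, such as Tpi1 in control replicate 1, which rested on 19 reads. No power calculation was made, so a group difference that missed the threshold is not shown to be absent.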
